A study of Triticum aestivum with 58 samples.

Results

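Chromosome 2D of bread wheat holds 179 genes that were expressed in the roots of nearly all cultivars of this panel and were close to absent from the root libraries of the cultivar Chakwal-86. They are described here by their place along the chromosome and by their levels in every root and leaf library. Members were chosen by 2 values. The median over all 81 root libraries had to be at least 5 CPM (the reads of a gene per 1000000 reads counted in that library), and the median of the 3 Chakwal-86 root libraries had to be at most 1/8 of it. Of 5865 identifiers on 2D, 1733 reached 5 CPM and 179 of these (10.3%) were low in Chakwal-86. None of the root genes listed by the study passed the rule, so none had to be left out. Low levels in Chakwal-86 root are therefore how the genes were chosen and are given as a description, without a test.

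The study measured RNA in untreated seedlings of spring wheat cultivars grown under favourable conditions. Each GEO sample is a cultivar and tissue with up to 3 replicate libraries of single-end reads primed from poly(A) tails, 81 libraries of 28 cultivars in root and 82 libraries of 30 cultivars in leaf. Chakwal-86 had 3 libraries in each tissue and was set against all other cultivars of the same tissue. The total count of a library ran from 8111979 to 11212584. The design calls the replicates biological, but the sources used here do not say how many plants a library holds, and p-values measure the spread between these libraries.

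Bread wheat is hexaploid. Its A, B and D sub-genomes each carry a related copy, or homoeologue, of most genes, and reads are assigned to 1 of the copies by the bases in which they differ. Identifiers starting TraesCS2D are numbered along chromosome 2D, so that their order gives the order of genes, although not their distance. The sources used here attach no names or functions to the member genes. Only RNA was measured, and no DNA of these plants was analysed here.

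Libraries that stood apart from their names have to be described first, because the results rest on them. At or under 1/8 of the root median were 173, 174 and 175 of the 179 members in Chakwal-86 root replicates 1, 2 and 3, and also 169 in Rawal-87 root replicate 1 and 168 in C-217 root replicate 2. The remaining libraries named Rawal-87 and C-217 had 0 or 1. In leaf, 145 members had a median of at least 1 CPM, and Chakwal-86 leaf replicate 1 had 133 of them at or under 1/8 of the leaf median, whereas Chakwal-86 leaf replicate 2 had 5 and replicate 3 had 0. Over all genes tested the share at or under 1/8 was 1.15% in Rawal-87 root replicate 1, 1.12% in C-217 root replicate 2 and 1.88%, 2.04% and 0.884% in Chakwal-86 leaf replicates 1, 2 and 3.

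The same libraries shared low genes outside 2D. On the other chromosomes 214 genes were at or under 1/8 in Chakwal-86 root, and 177 of them (82.7%) were also low in Rawal-87 root replicate 1 and 175 (81.8%) in C-217 root replicate 2. Those 177 genes were 89.4% of all genes low in the Rawal-87 library outside 2D, and the 175 were 91.6% of those low in the C-217 library. The other replicates of Rawal-87 and C-217 shared between 9 and 22 of the 214, and the other 76 root libraries a median of 29 and at most 107, in Pak-81 root replicate 2. Of 138 such genes measurable in leaf, 104 were low in Chakwal-86 leaf replicate 1, against 16 in replicate 2 and 18 in replicate 3, and the other leaf libraries had a median of 19 and at most 38. The names on these libraries are kept as deposited, and results are given with and without them.

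The tissue labels of the Chakwal-86 libraries were checked with markers. The 3 homoeologues of PpD, listed by the study as a response regulator of the PRR37 kind, summed to between 100.1 and 131 CPM in Chakwal-86 leaf, against 1.06 to 1.63 CPM in Chakwal-86 root. Of 12 root markers (the homoeologues of RTH3, a COBRA-like protein, of COW1, and of EXPB1 and EXPA8, expansins, which loosen cell walls), 11 had reads in Chakwal-86 root and 3 in Chakwal-86 leaf. Only 6 had reads in every Chakwal-86 root library. The sums of the 12 overlapped, with 54.7 to 94.2 CPM in Chakwal-86 root and 12.2 to 83.5 CPM in Chakwal-86 leaf. The other 76 root libraries had a median sum of 168 CPM and the other 79 leaf libraries 25.9 CPM. The root markers thus separated the Chakwal-86 tissues only weakly.

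**Figure D1:**
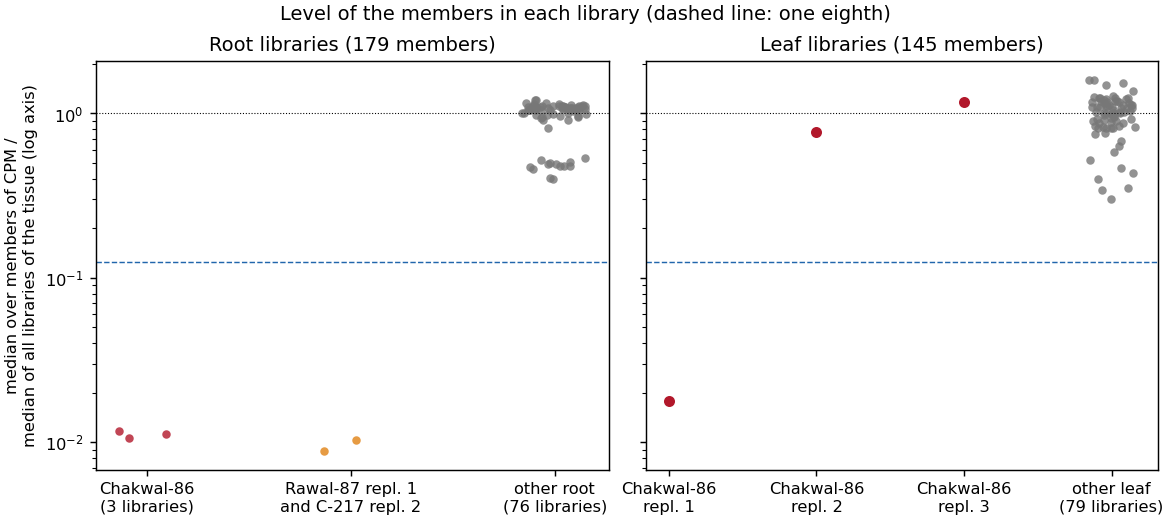
Median over members of CPM divided by the median of all libraries of the tissue, 1 point per library, on a log axis, for root (left, 179 members) and leaf (right, 145 members with a leaf median of at least 1 CPM). The 3 Chakwal-86 root libraries lie between 0.0105 and 0.0117, Rawal-87 replicate 1 and C-217 replicate 2 at 0.0102 and 0.00883, and the other 76 between 0.401 and 1.21, while in leaf Chakwal-86 replicate 1 alone lies under the dashed line of 1/8.

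The members' summed level was 120 CPM, 105 CPM and 110.0 CPM in the 3 Chakwal-86 root libraries, 130 CPM in Rawal-87 root replicate 1 and 168 CPM in C-217 root replicate 2. In the other 76 root libraries it ran from 2948 CPM through a median of 5617 CPM to 6104 CPM. None of the 5 came near the lowest of the other 76. In whole tissue, fewer cells of a type and less RNA per cell cannot be told apart. The median member had 1.23% of its root median in Chakwal-86. Rawal-87 root replicate 1 and C-217 root replicate 2 were each below all of the other 76 libraries in 156 members (87.2%), beside 1.38% and 1.13% of all genes. Both libraries were picked after the values were seen and left out of the 76, so these counts are a description.

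Low did not always mean without reads. In Chakwal-86 root 42 members had no read in any of the 3 libraries, which allows a level of up to 0.112 CPM over the 3 together (3 counts, covering counting error only), and 94 had at most 3 reads in each. The highest count of any member was 93 reads. All 3 replicates were at or under 1/8 of the root median for 164 members. In 153 members every Chakwal-86 root library was below every one of the other 76 root libraries, beside 0.824% of all genes with a root median of at least 5 CPM, a count from which nothing is read because the same libraries chose the members. In the fit across all genes (edgeR) the median log2 fold change in Chakwal-86 root was -6.03 over the members, beside -0.01 over all genes. It is a description under the same limit.

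The 8 members with the highest root medians show the size of the difference. TraesCS2D02G503000, the highest, had 0.583, 0.456 and 0.635 CPM in the 3 Chakwal-86 root libraries, from 5, 4 and 6 reads, against 141 to 626 CPM with a median of 382 CPM in the other 76. TraesCS2D02G541400 had 0.583, 0 and 0.741 CPM in Chakwal-86, against 158 to 470 CPM (median 230.1 CPM). TraesCS2D02G549200 had 2, 2 and 1 reads in Chakwal-86, which is 0.233, 0.228 and 0.106 CPM, against 64.2 to 384 CPM (median 139.8 CPM). In none of these 3 genes did any of the other 76 libraries come near the Chakwal-86 values.

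Some of the 8 kept a measurable count of reads. Whether these reads came from the 2D copies or from their homoeologues was not tested. TraesCS2D02G546500 had 8.39, 7.75 and 5.72 CPM in Chakwal-86 root, against 78.8 to 410 CPM in the other 76 (median 224 CPM). TraesCS2D02G543900 had 2.1, 1.37 and 1.91 CPM, against 68.9 to 428 CPM (median 206 CPM). TraesCS2D02G524200 had 6.88, 6.38 and 9.85 CPM, against 9.13 to 343 CPM (median 152 CPM). In that gene the ranges overlapped, and 11 of the other 76 libraries were also at or under 1/8 of its root median of 145 CPM.

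TraesCS2D02G493500 had 2.56, 3.08 and 2.86 CPM in Chakwal-86 root, against 8.33 to 349 CPM (median 124 CPM). TraesCS2D02G489200 had 1.17, 0.570 and 0.106 CPM, against 12.7 to 203 CPM (median 97.7 CPM). The lowest of the other libraries was NARC-2009 root replicate 3 in the first gene and Sonalika root replicate 2 in the second, and both libraries belong to a set with a partial lowering that is described further on. All 8 genes were low in Rawal-87 root replicate 1 and C-217 root replicate 2 as well, between 0.332 and 10.6 CPM in the Rawal-87 library and between 0.382 and 10.4 CPM in the C-217 library.

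**Figure D2:**
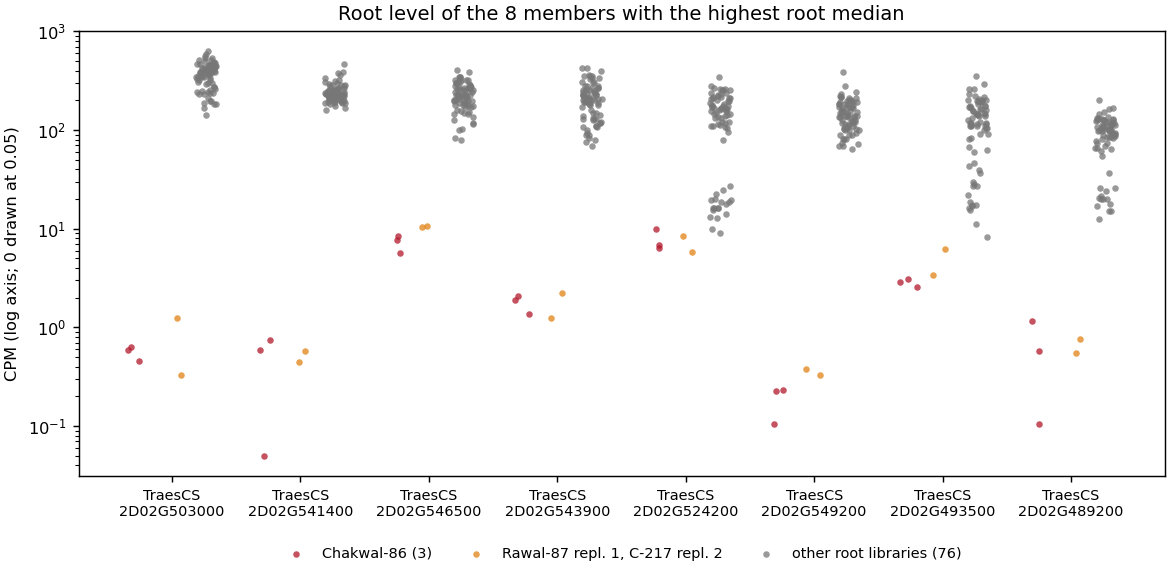
CPM in each root library, on a log axis, of the 8 members with the highest root median, with Chakwal-86, the libraries of Rawal-87 replicate 1 and C-217 replicate 2, and the other 76 root libraries side by side. In TraesCS2D02G503000 the Chakwal-86 libraries lie between 0.456 and 0.635 CPM and the other 76 between 141 and 626 CPM, and the other 76 reach down to 9.13 CPM in TraesCS2D02G524200, 8.33 CPM in TraesCS2D02G493500 and 12.7 CPM in TraesCS2D02G489200.

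Nearly all members were neighbours. By identifier order 172 of the 179 lay in a single stretch from TraesCS2D02G480700 to TraesCS2D02G565600, the 1503rd to the 1700th of the 1733 expressed 2D genes. The stretch holds 837 identifiers, of which 198 had a root median of at least 5 CPM, and 172 of these 198 (86.9%) were members. The stretch was drawn after the values were seen, as the longest series of members each at most 10 places in the expressed order from the one before.

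Levels changed between neighbouring expressed genes at both edges. The first member, TraesCS2D02G480700, had 0.816, 1.03 and 0.424 CPM in Chakwal-86 root beside a root median of 22.5 CPM, while the expressed gene just before it, TraesCS2D02G479900, had 20.1, 14.1 and 16.3 CPM beside 26.2 CPM. The last, TraesCS2D02G565600, had 0.350, 0.684 and 0.635 CPM beside 22.7 CPM, while the gene after it, TraesCS2D02G567600, had 13.5, 11.5 and 8.69 CPM beside 9.75 CPM. The 20 expressed genes before the stretch had a median ratio of Chakwal-86 root to the root median of 1.28, and the first 21 after it had 0.953. The last 12 expressed genes of the chromosome, TraesCS2D02G596300 to TraesCS2D02G601600, were lower again, with a median ratio of 0.279 and a range from 0.0290 to 0.651. The cut between the 21 and the 12 genes was placed by these same ratios, so both medians are a description.

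Other genes of the stretch went the same way without meeting the rule. The 26 expressed genes there that are not members had a median ratio of 0.185, and their ratios ran from 0.125 to 0.495. Of 133 weaker genes of the stretch, with root medians of 1 to 5 CPM, 114 were at or under 1/8 in Chakwal-86 root, against 15 of 962 such genes on the rest of 2D. A further 506 identifiers of the stretch had a root median under 1 CPM, and 2 of them reached 1 CPM in Chakwal-86.

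The threshold cut through a continuous range. Just inside it lay TraesCS2D02G518100 with a ratio of 0.1249, TraesCS2D02G507500 with 0.1241 and TraesCS2D02G489100 with 0.1232. Just outside lay TraesCS2D02G489900 with 0.1251, TraesCS2D02G506400 with 0.1256 and TraesCS2D02G513600 with 0.1281. These 6 genes all belong to the stretch.

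The other 7 members lay elsewhere. TraesCS2D02G600600, TraesCS2D02G600700 and TraesCS2D02G601500 are among the last expressed genes of the chromosome, and TraesCS2D02G108100, TraesCS2D02G108200, TraesCS2D02G148600 and TraesCS2D02G175600 are the 242nd to the 457th of its expressed genes. The 3 genes at the end of the chromosome had root medians of 7.87, 13.5 and 12.4 CPM. In Chakwal-86 root TraesCS2D02G600600 had 0.233, 0.228 and 0.106 CPM, TraesCS2D02G600700 had 0.350, 0.570 and 0.953 CPM and TraesCS2D02G601500 had 1.05, 0.570 and 0.847 CPM.

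The first 3 of the 4 others had the highest single-replicate ratios of all members. TraesCS2D02G108100 had 4.90, 0 and 0.106 CPM in Chakwal-86 root replicates 1, 2 and 3, TraesCS2D02G108200 had 7.11, 0.684 and 1.38 CPM, and TraesCS2D02G148600 had 3.96, 1.03 and 0.635 CPM. Replicate 1 was thus not low in these genes, and neither were Rawal-87 root replicate 1 (5.54, 11 and 6.42 CPM) and C-217 root replicate 2 (4.67, 21.2 and 16.3 CPM). TraesCS2D02G175600 differed from them, with 0.233, 0.456 and 0.635 CPM in Chakwal-86 root and 0.221 and 0.286 CPM in the libraries of Rawal-87 and C-217.

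**Figure D3:**
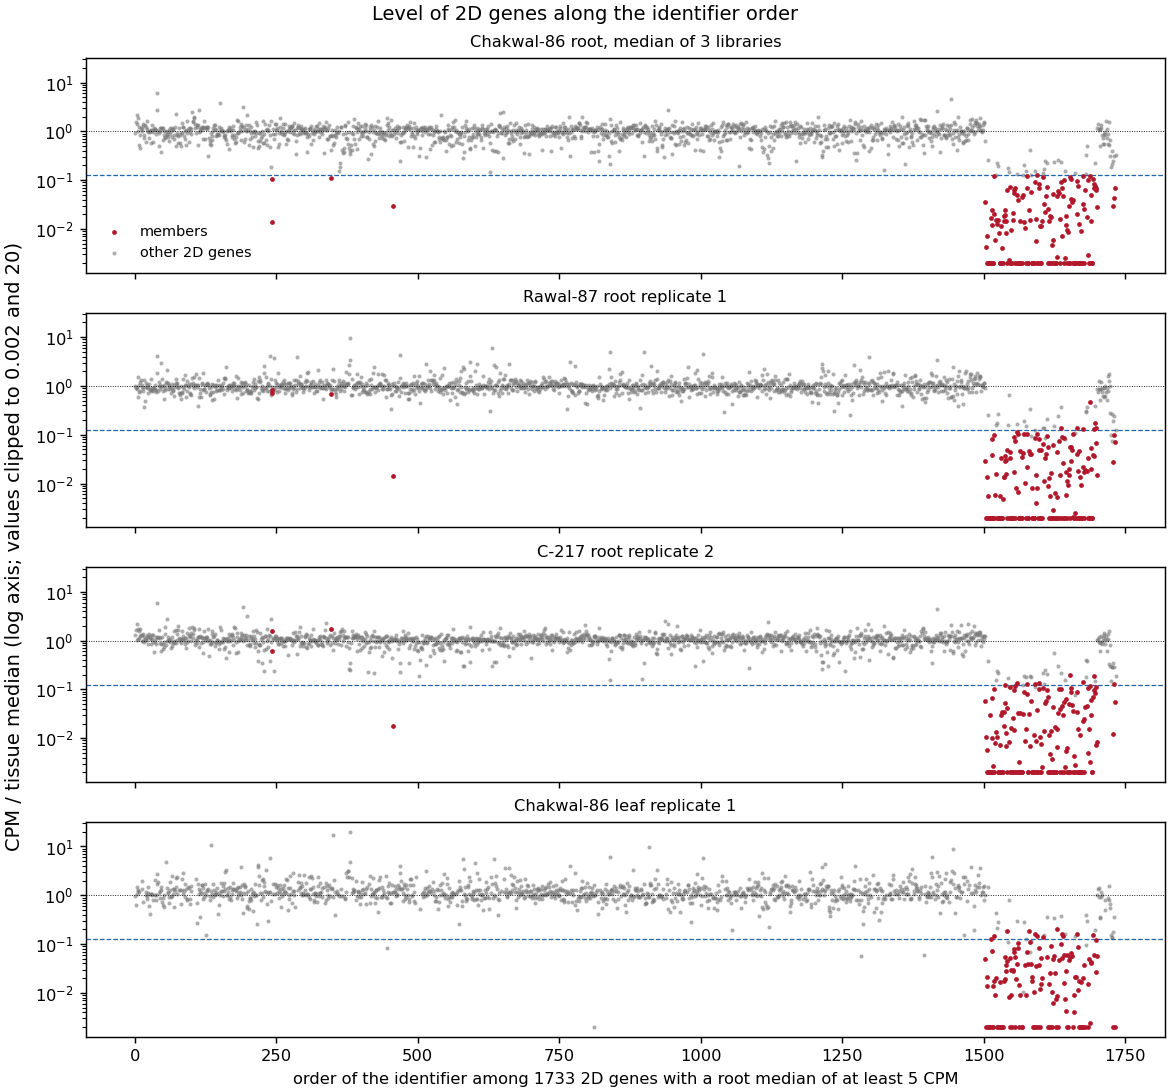
CPM divided by the tissue median (log axis, clipped to 0.002 and 20) of the 1733 expressed 2D genes in identifier order, for the Chakwal-86 root median, Rawal-87 root replicate 1, C-217 root replicate 2 and Chakwal-86 leaf replicate 1, with members in red. In all 4 panels most genes from order 1503 to 1700 lie under the dashed line of 1/8, the genes before them and the first 21 after them lie mostly around 1, and the last 12 of the chromosome are lower again, with a median of 0.279 in Chakwal-86 root. The cut between the 21 and the 12 genes was placed by the Chakwal-86 root ratios.

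The clustering can be set beside other chromosomes by the same rule. Between 1 and 29 genes per chromosome, with genes of no assigned chromosome counted as one more, were low in Chakwal-86 root elsewhere, at most 2.17% of a chromosome's expressed genes, and 1.21% over all chromosomes with 2D included. When expressed genes were cut into windows of 20 neighbours, 10 of 1628 windows had a median ratio at or under 1/8, and all 10 were on 2D. Another 10 windows had a median ratio of at least 1.5, of which 8 were consecutive on chromosome 2A.

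Those 8 windows hold 160 expressed 2A genes, from TraesCS2A02G487500 to TraesCS2A02G553000, on the chromosome homoeologous to 2D and at similar identifier numbers. Their median ratio was 1.87, 1.88 and 1.84 in Chakwal-86 root replicates 1, 2 and 3, 1.74 in Rawal-87 root replicate 1 and 2.0 in C-217 root replicate 2. The other 76 root libraries lay between 0.762 and 1.2. The rest of 2A stayed between 0.974 and 1.05 in the 5 libraries, and the expressed genes of 2B between 0.985 and 1.06. In leaf the 138 of the 160 genes with a leaf median of at least 1 CPM had a median ratio of 2.16 in Chakwal-86 leaf replicate 1, 0.783 in replicate 2 and 1.09 in replicate 3, beside 1.15, 0.771 and 1.17 for the rest of 2A. The leaf libraries of other cultivars ran from 0.531 to 1.71, and the highest, Seher-2006 leaf replicate 2, had 1.14 on the rest of 2A and a median member ratio of 0.630. The 2A genes were chosen for their level in Chakwal-86 root, so the values there are a description, and those of the leaf library and of the libraries named Rawal-87 and C-217 were not used in the choice.

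**Figure D4:**
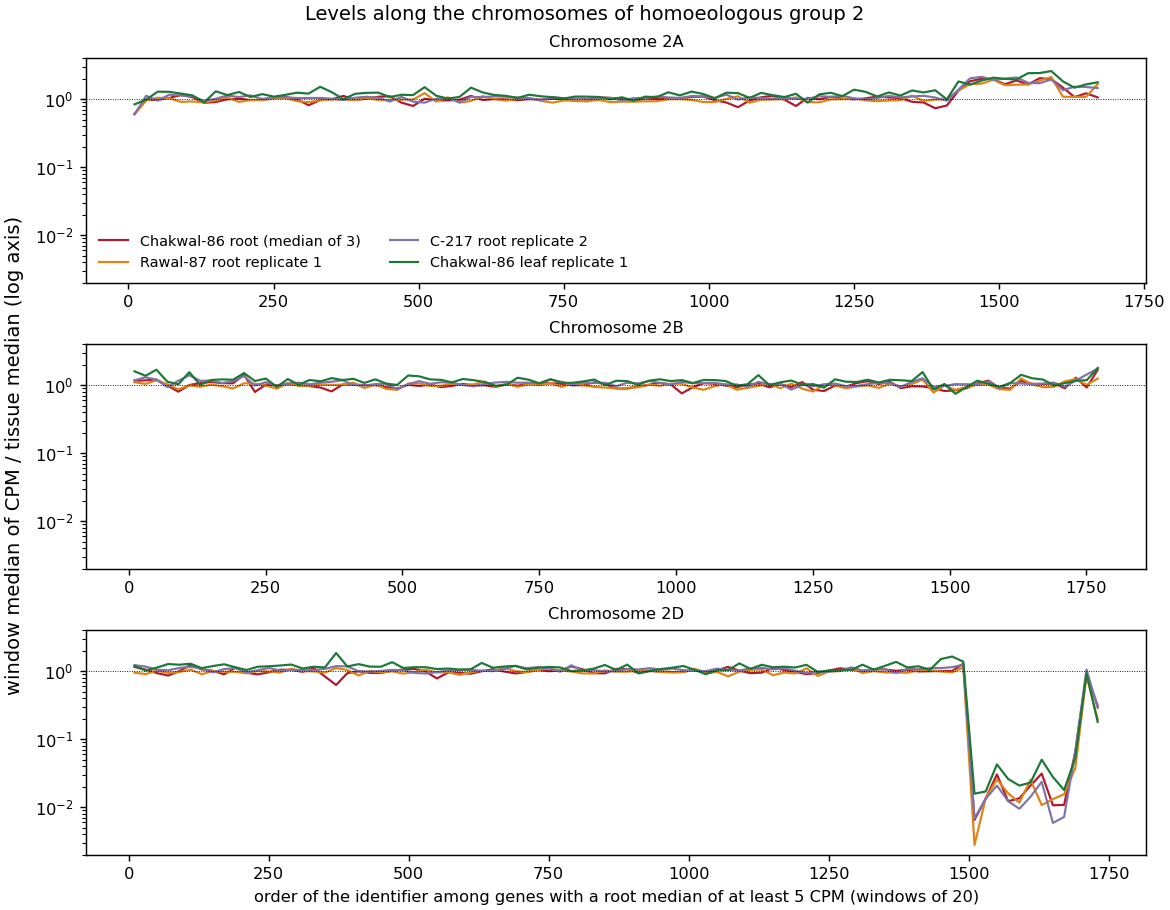
Median of CPM divided by the tissue median over windows of 20 expressed genes (log axis) along the identifier order of chromosomes 2A, 2B and 2D, for Chakwal-86 root, Rawal-87 root replicate 1, C-217 root replicate 2 and Chakwal-86 leaf replicate 1. The drop on 2D and a rise to 1.63 to 2.03 in Chakwal-86 root on 2A come at similar places of the 2 chromosomes, and no such stretch is seen on 2B.

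Leaf levels were not part of the rule. The members were expressed in leaf at a median of 0.474 of their root level among the 145 with a leaf median of at least 1 CPM, beside 0.472 for all genes with a root median of at least 5 CPM and the same leaf minimum. In Chakwal-86 leaf replicate 1, 114 of the 145 members (78.6%) were below each of the 79 leaf libraries of other cultivars, against 0.752% of all 41745 genes with a leaf median of at least 1 CPM. The same count was 3 (2.07%) in Chakwal-86 leaf replicate 2, beside 2.05% of all genes, and 0 in replicate 3, beside 0.163%. The low level thus appeared in 1 of the 3 leaf libraries named Chakwal-86.

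Of the 8 members with the highest root levels, 6 had Chakwal-86 leaf replicate 1 below all other leaf libraries. TraesCS2D02G503000 had 5.75, 107 and 562 CPM in Chakwal-86 leaf replicates 1, 2 and 3, against 65.6 to 963 CPM in the other 79 leaf libraries (median 392 CPM). TraesCS2D02G541400 had 0.892, 71.3 and 102 CPM, against 65.2 to 417 CPM (median 119 CPM). TraesCS2D02G489200 had 2.08, 237 and 279 CPM, against 5.87 to 523 CPM (median 230.4 CPM). In each of these 3, replicates 2 and 3 lay within the range of the other leaf libraries. The 2 exceptions among the 8 were TraesCS2D02G543900, with 4.16, 57.1 and 207 CPM in Chakwal-86 leaf against 1.60 to 218 CPM in the other 79 (median 69.3 CPM), and TraesCS2D02G524200, with 0.0992, 1.83 and 0.561 CPM against 0 to 6.83 CPM (median 1.02 CPM). In both, replicate 1 was the lowest of the 3 Chakwal-86 libraries but within the range of the other cultivars.

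With all 3 libraries taken as replicates of Chakwal-86, no member passed the threshold in leaf (edgeR, adjusted p under 0.1, 165 members tested). Over all 61842 genes 0.0323% were lower and 1.51% higher at this threshold. At an unadjusted p under 0.05, 26 members (15.8%) were lower and 3 (1.82%) higher, beside 1.66% and 7.99% of all genes. DESeq2 also called 0 members, and limma on log2(tpm + 1) called 6 lower.

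The median log2 fold change over the members was -0.49, beside 0.08 over all genes. It turned to 0.08 when Chakwal-86 leaf replicate 1 was left out, with 0 members called, and went to -1.0 with 8 called lower when replicate 3 was left out. Leaving out replicate 2 gave -0.91 and 1 lower call. The leaf contrast therefore rested on which of the 3 libraries were in it.

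In 3 members the median Chakwal-86 leaf level was nearest to the leaf median of all libraries. TraesCS2D02G492600 had 0, 18.3 and 12.5 CPM in the 3 Chakwal-86 leaf libraries, against a median of 12.4 CPM in the other 79. TraesCS2D02G531800 had 0.0992, 13.5 and 16.7 CPM against 13.4 CPM, and TraesCS2D02G490700 had 0, 5.71 and 6.29 CPM against 5.67 CPM. A level near the median thus went with a replicate 1 at or near 0 in all 3 genes.

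The members farthest below the leaf median were low in replicate 2 also. TraesCS2D02G521300 had 0, 0 and 0.673 CPM in Chakwal-86 leaf, against a median of 1.05 CPM in the other 79 libraries, TraesCS2D02G504700 had 0, 0.456 and 18.7 CPM against 7.53 CPM, and TraesCS2D02G515900 had 0.198, 1.60 and 13 CPM against 19.1 CPM. None passed the threshold, with log2 fold changes of -2.38 (SE 1.32, adjusted p = 0.60), -0.41 (SE 0.84, adjusted p = 0.984) and -2.04 (SE 0.76, adjusted p = 0.265, all edgeR). TraesCS2D02G500600, chosen after its values were seen because it had the highest ratio of leaf to root, had 24.4, 1234 and 492 CPM in Chakwal-86 leaf beside a leaf median of 618 CPM, and 1.63, 0.684 and 0.635 CPM in Chakwal-86 root beside a root median of 13.6 CPM.

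Differences between the other cultivars were common over all genes. With all their root libraries in, the share of members that differed was smaller than that of all genes. Differences between cultivars were tested over 78 root libraries of 27 cultivars without Chakwal-86 (edgeR F-test, adjusted p under 0.1). Of the 179 members 107 (59.8%) passed, beside 82.4% of all genes and 87.4% of those with a root median of at least 5 CPM. The count was 30 without replicate 3 of every cultivar, and 78 and 103 without replicates 1 and 2. Without Rawal-87 root replicate 1 and C-217 root replicate 2, 174 members (97.2%) passed, beside 82.5% and 87.8%, and the median F over the members went to 4.06 without the 2 libraries, against 1.83 with them. Both libraries belong to cultivars whose remaining replicates were not low, and both were picked after the values were seen.

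The smallest p among members was that of TraesCS2D02G175600 (F = 9.76, adjusted p = 1.98e-11), with 95 ± 12.6 CPM in C-271 and 0.683 ± 0.412 CPM in Pak-81 as the highest and the lowest cultivar mean (SD, n = 3 and n = 2 libraries, edgeR's quasi-likelihood test with Benjamini-Hochberg adjustment). TraesCS2D02G542600 (F = 8.58, adjusted p = 2.17e-10, edgeR) had 87.5 ± 9.36 CPM in Gabo and 7.31 ± 5.30 CPM in C-217 (SD, n = 3 each), and the C-217 mean includes replicate 2. TraesCS2D02G561400 (F = 7.36, adjusted p = 3.26e-09, edgeR) had 37.5 ± 4.77 CPM in Gabo and 3.23 ± 0.393 CPM in Ujala-2016 (SD, n = 3 each). Without the 2 libraries the 3 smallest belonged to TraesCS2D02G542600 (F = 41.2), TraesCS2D02G552700 (F = 22.6) and TraesCS2D02G175600 (F = 21.4).

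Among the other 76 root libraries 112 of the 179 members were at or under 1/8 of the root median in none, 36 in at least 5 and none in more than 19. This partial lowering divided the stretch. The division was made after the values were seen, from the 29 members of the stretch that were at or under 1/8 in at least 7 of the other 76 root libraries. They lie in 2 groups of neighbours, 16 in part 1 (order 1503 to 1578, 66 members) and 13 in part 3 (order 1600 to 1628, 24 members), with none in part 2 between them (18 members) or in part 4 after them (order 1629 to 1700, 64 members).

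In part 3 the median ratio over its members was below 0.5 in 19 of the other 76 root libraries, from 0.0803 in Pasban-90 replicate 1 to 0.354 in Parwaz-94 replicate 1. In part 1 it was below 0.5 in 13 of them, from 0.202 to 0.289, and no library lay between 0.289 and 0.674. Part 2, which holds none of the 29 members, was below 0.5 in 12, from 0.303 to 0.494, and the next library stood at 0.506. The line of 0.5 fell inside a lowered group there. All 19 libraries low in part 3 were at 0.303 to 0.715 in part 2, the highest being Parwaz-94 replicate 2. The lowest of the remaining libraries among the 76 was Barani replicate 3 at 0.903, so the lowering ran on between parts 1 and 3 in the same libraries. In part 4 no library was below 0.892. Chakwal-86 root was at or under 0.0229 in every part, and the libraries of Rawal-87 and C-217 at or under 0.0162.

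In root the partial lowering followed cultivar names in some cases. All 3 root libraries of Pasban-90 were below 0.5 in parts 1 and 3 (0.224 to 0.250 in part 1), and so were both root libraries of Inquilab-91. Replicates 1 and 3 of NARC-2009, 2 and 3 of Sonalika and 1 and 2 of Chakwal-50 were low, while the remaining library of each was not, and in Barani and Pak-81 only replicate 2 was. All 3 libraries of Pari-73 and all 3 of Parwaz-94 were low in part 3 but at 1.01 to 1.22 in part 1.

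**Figure D5:**
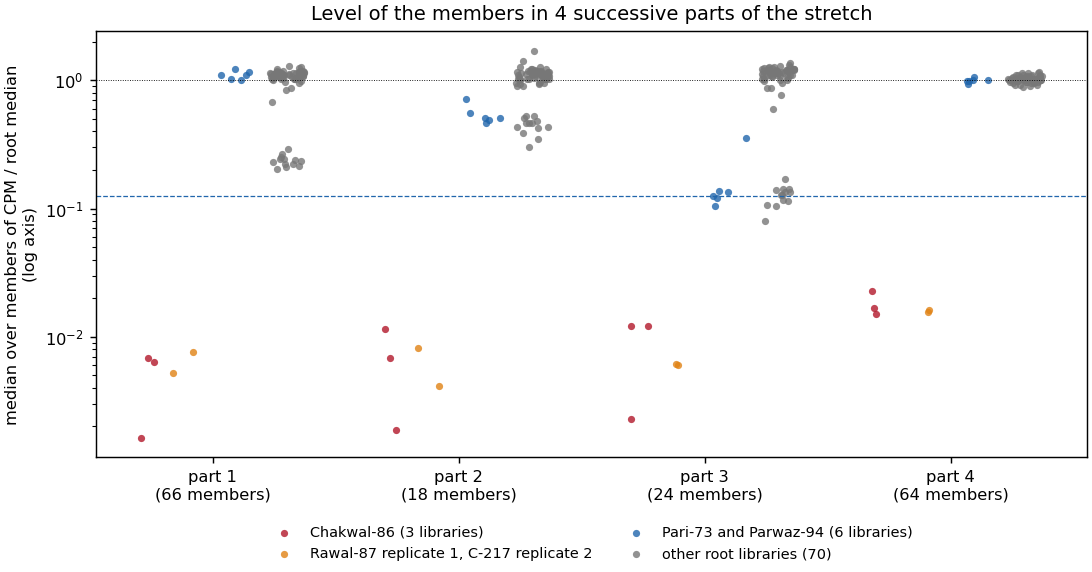
Median over members of CPM divided by the root median (log axis) in 4 successive parts of the stretch, 1 point per root library. Chakwal-86 and the libraries of Rawal-87 replicate 1 and C-217 replicate 2 are low in all 4 parts, Pari-73 and Parwaz-94 are low in part 3 and at 1.01 to 1.22 in part 1, and in part 4 the other root libraries lie between 0.892 and 1.17.

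Leaf libraries of other names were low in the same parts. The median ratio was below 0.5 in part 1 in 7, in part 2 in 11, in part 3 in 14 and in part 4 in 1 of the 79 leaf libraries of other cultivars. Leaf ratios also shifted over whole libraries. Expressed 2D genes outside the stretch had median ratios from 0.517 to 1.58 in these 79. The library low in part 4, Dirk leaf replicate 2 (0.493), was the one at 0.517, so its low level was not particular to part 4. Seher-2006 leaf replicate 2 was not below 0.5 in any part but stood under its own level on 2D. It was at 0.613, 0.714, 0.701 and 0.554 in parts 1 to 4, while its 2D genes outside the stretch were at 1.12. All 7 with a low part 1 also had a low part 3. They were Hope replicate 2, Pak-81 replicate 3, Ujala-2016 replicate 2, C-271 replicate 3, Sonalika replicate 1, Pak-13 replicate 1 and Pasban-90 replicate 3. Of these names Pak-81, Sonalika and Pasban-90 also had low root libraries, Ujala-2016, C-271 and Pak-13 had none, and Hope was not among the root libraries. Names with every root library low in part 3 were not always low there in leaf. In leaf replicates 1, 2 and 3, Inquilab-91 was at 0.837, 1.27 and 1.14 in part 3, and Parwaz-94 at 0.870, 1.11 and 0.825. Pari-73 was at 1.07, 1.17 and 0.253, and Pasban-90 at 0.107, 0.946 and 0.250. Chakwal-86 leaf replicate 2 was at 0.405 in part 2 and at 0.901, 0.888 and 0.780 in parts 1, 3 and 4. Its 2D genes outside the stretch were at 0.761.

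In leaf, differences between the other cultivars were tested over 77 libraries of 27 cultivars. Of 164 members tested 58 (35.4%) passed, beside 51.9% of all genes and 50.7% of those with a root median of at least 5 CPM, and the count was 14, 26 and 18 without replicates 1, 2 and 3 of every cultivar. TraesCS2D02G544100 had the smallest p (F = 5.90, adjusted p = 1.59e-06, edgeR), with 35.6 ± 19.7 CPM in TJ-83 and 3.20 ± 0.146 CPM in C-518 (SD, n = 3 and n = 2). TraesCS2D02G562900 (adjusted p = 0.000224, edgeR) had 11.2 ± 0.981 CPM in Zincol-2016 and 3.37 ± 0.848 CPM in Sonalika (SD, n = 3 each). TraesCS2D02G523100 (adjusted p = 0.000250, edgeR) had 9.35 ± 9.5 CPM in TJ-83, a spread as wide as its mean, and no reads in the 3 leaf libraries of C-217.

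The genes most like the members across the 81 root libraries were found by Spearman's correlation with the members' median ratio, as a description. All 5 of the closest non-members of the whole genome lay in the stretch. Nothing is read from this, because the 81 libraries include the Chakwal-86 libraries that chose the members. TraesCS2D02G506600 (rho 0.84) had 25.1, 28.6 and 27.1 CPM in Chakwal-86 root, against a lowest value of 56.3 CPM in the other 76 libraries. TraesCS2D02G490600 (rho 0.79), TraesCS2D02G523400 (0.76), TraesCS2D02G513600 (0.75) and TraesCS2D02G534800 (0.74) had ratios of 0.195, 0.171, 0.128 and 0.259. The points are libraries of which up to 3 share a cultivar, so these correlations carry no p.

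The root genes listed by the study on 2D lay outside the stretch, all 9 before it. Among them are SERK1, a receptor kinase, WOX11, a homeobox factor of crown roots in rice, and RTH1, listed as a probable apyrase. Of the 9, 6 had a root median of at least 1 CPM, with ratios of Chakwal-86 root to the root median between 0.509 (RTH1-2D) and 1.30 (WOX11_2D). The 10 measurable homoeologues of the same genes elsewhere had ratios between 0.496 and 1.21, RTH1_2A and RTH1_2B being at 0.496 and 0.515. The other 3 listed 2D genes had root medians under 1 CPM, and no ratio is given for them.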

How the data were processed

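Raw counts per gene were deposited by the authors, who cleaned single-end reads with SOAPnuke, mapped them with HISAT2 (Bowtie is also named) and counted them with featureCounts. The build of the reference genome is not given in the sources used here. The authors' tpm values were not used, and tpm was computed from the counts where named. CPM used the total counts of a library. Members and lists were chosen with earlier results of these data known. Genes were named by rule: the 8 highest members, the first and the last, those next to the threshold, those with a replicate above it, the extremes in leaf and in the F-tests, and the 5 most alike. Fits used edgeR 4.0.16 (TMM, filterByExpr, quasi-likelihood F-test, Benjamini-Hochberg over all genes, threshold 0.1) on cultivar means, with the trended dispersion estimated on 4000 genes spaced over mean expression. DESeq2 1.42.0 and limma 3.58.1 served as alternatives. On simulated counts the leaf contrast recovered all 200 genes changed 4-fold among 54191, with 30 unchanged genes called. The root F-test recovered 135 of 200 among 61442, with 11 unchanged genes called. There the change was put into a single cultivar, Rawal-87, so the recovery speaks only for a change of that kind. The simulation drew counts with a dispersion of 0.1, against 0.318 in the leaf fit, and changed only well-expressed genes. The leaf recovery is therefore no measure of power at the wider spread of the real leaf libraries or for weak members. Intervals and limits from counts cover counting error only.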

Additional observations from a re-analysis of the deposited data

How the results depend on the processing

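The number of members stayed between 120 and 214 under 11 of 12 alternatives, and was 308 with a root median of at least 1 CPM, of which 286 lay in the stretch. Without a Chakwal-86 root replicate it was 174 to 182, and the median ratio was 0.0102 to 0.0128. Members lower in Chakwal-86 leaf numbered 1 with the 24 cultivars only, 6 with limma, 26 at an unadjusted p under 0.05 and 0 to 8 without 1 replicate, and members higher numbered 2 with the 24 cultivars and 3 at an unadjusted p. The other alternatives, DESeq2, no filter on low counts and the replicate number as a block among them, gave 0 in each direction. Members that differed between the other root cultivars numbered 174 without Rawal-87 root replicate 1 and C-217 root replicate 2, and 30 to 103 without 1 replicate number of every cultivar, the lowest without replicate 3. In leaf they numbered 35 with the 24 cultivars and 14, 26 and 18 without replicates 1, 2 and 3 of every cultivar, fits with fewer libraries. Same-numbered deviations of Chakwal-86 and the other cultivars correlated at 0.075, 0.056 and 0.249 in root and 0.141, 0.468 and 0.423 in leaf, and the numbers are not said to mark a shared batch. The replicate block gave 103 in root and 56 in leaf, against 107 and 58 without it. In the Chakwal-86 root libraries 3 reads were 0.318 to 0.350 CPM, and lower levels rest on fewer.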
